A study of Arabidopsis thaliana with 8 samples.

Results

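A group of 21 Arabidopsis genes had their highest transcript values in protoplasts of the hira background, above wild-type (WT) protoplasts and above roots of both genotypes. The genes were chosen by these array values: a gene was a member when the lower of the 2 hira protoplast arrays exceeded the highest of the other 6 arrays by at least 1.5 on the log2 scale, a difference called the gap here. Of 22746 probe sets that are not controls, 46 passed this gap, or 0.202%. Among these 46, 25 carried 1 gene, 2 carried several genes and 19 had no gene listed in the platform annotation used. From the 25, 2 plastid genes and the genes AMY1 and SBT3.3 were set aside by the rule, which left 21 probe sets for 21 genes, of 13355 genes with a probe set of their own, all 21 annotated as protein-coding in RefSeq. The hira protoplast arrays chose these genes, so every difference between hira protoplasts and another group is given for them as a description. Where limma calls on such differences are counted, the rule had largely fixed them, and they are no test of the members.

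The study profiled hira protoplasts, WT protoplasts, hira roots and WT roots of Arabidopsis thaliana on Affymetrix arrays, at 2 arrays per group. Enzyme digestion of root tissue removes the cell walls and leaves free protoplasts, and the stated interest is the role of hira in the dedifferentiation that follows. The labels give no allele for hira and no plant age. They name the digestion under every sample, roots included, so whether the roots met the enzymes cannot be told from them. Nothing in them ties replicates to separate plants, and p-values therefore measure the spread between these arrays only, which may be technical.

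HIRA is a histone chaperone that places the histone variant H3.3 into chromatin outside DNA replication, together with UBN and CABIN partners. H3.3 marks transcribed genes and is exchanged as transcription starts and stops. Digesting the wall exposes root cells to wounding, osmotic stress and wall fragments that act as danger signals, and the freed cells begin to lose their root identity. The HIRA transcript is not analysed here because no single-gene probe set carried its name, and the genotype label was therefore not checked by it.

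Values are centred on each probe set's median over the 8 arrays. They show differences between arrays and keep no expression level, so whether a low value lies at the detection floor cannot be read. Over the 21 genes the median value was 2.83 and 2.73 on the hira protoplast arrays, 0.03 and 0.00 on the WT protoplast arrays, -0.05 on each hira root array, and -0.08 and -0.03 on the WT root arrays. Over all probe sets, these medians lay between -0.02 and 0.04 on every array. The replicate arrays of hira protoplasts were the closest of any group, with an SD of replicate differences of 0.309, and WT roots, at 0.736, were the farthest apart. For GAPDH, whose 5′ and 3′ control probes check RNA integrity, the 5′ value minus the 3′ value was -0.09 ± 0.01 in hira protoplasts and -2.22 ± 0.04 in WT roots, with 0.62 ± 0.19 in WT protoplasts and 0.04 ± 0.12 in hira roots as the other values (SD, n = 2). For the actin control probes it was 0.261 ± 0.055 in hira protoplasts and 1.52 ± 0.32 in WT protoplasts. Hira roots had -0.25 ± 0.13 and WT roots -1.81 ± 0.47 (SD, n = 2). The control probes are centred like the rest, so these values compare groups, and a value near 0 does not show intact RNA. The part of these differences in the gene values was not tested.

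**Figure D1:**
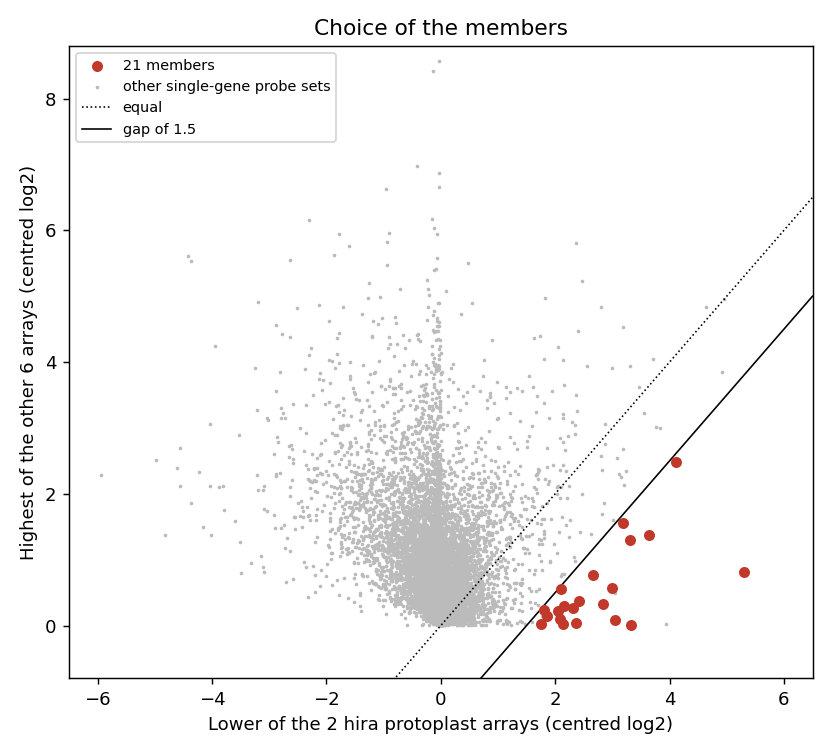
Each point is a probe set with 1 gene, placed by the lower of its 2 hira protoplast arrays (x axis) and the highest of its other 6 arrays (y axis), both in centred log2 units. The 21 members in red lie on or right of the solid line, a gap of 1.5, while grey points past that line are the genes set aside by the rule.

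The gap had a median of 2.01 over the members and ran from 1.54 for AT1G66080 to 4.49 for AT5G17340, against a median of -0.56 over all probe sets. The same rule turned to the other groups gave 22 genes high only in WT protoplasts, 129 high only in hira roots and 34 high only in WT roots, and 17 genes were low only in hira protoplasts, of 13438 probe sets considered each time. The 5 members nearest the limit were AGL46 at 1.71, AT2G18420 at 1.64, BGLU28 at 1.63, AT3G56060 at 1.56 and AT1G66080 at 1.54. Just under it were AT3G48650 at 1.46, AT3G04650 at 1.38, AT3G48510 and AT4G27657 at 1.37 each, and RALFL18, a gene of the RALF family of signalling peptides, at 1.36. With WT protoplast replicate 1 left out of the rule 59 genes passed the limit, and with hira protoplast replicate 1 left out 49. No further probe set was annotated to a member gene, though 8730 probe sets had no gene listed.

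Averages of the 21 genes were higher in hira than in WT protoplasts by 1.75 to 5.55 log2 units, with a median of 2.52. They were higher in hira protoplasts than in hira roots by 1.92 to 6.68, with a median of 3.06. The replicate hira protoplast arrays lay within 0.5 of each other for 17 of the 21 genes. The share over all probe sets was not counted, and this group had the closest replicates of any, with an SD of differences of 0.309. The rule also used the lower of the 2 arrays. This count is therefore no result about the members. In the fit over all probe sets, limma called 18 of the 21 higher in hira than in WT protoplasts, against 5.05% higher and 3.24% lower over all probe sets. It called 19 of the 21 higher in hira protoplasts than in hira roots, against 12.0% higher and 12.2% lower over all. In both contrasts 0 members were called lower. The rule used these contrasts and fixed their direction, so these counts only describe the choice and are no result about the members.

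**Figure D2:**
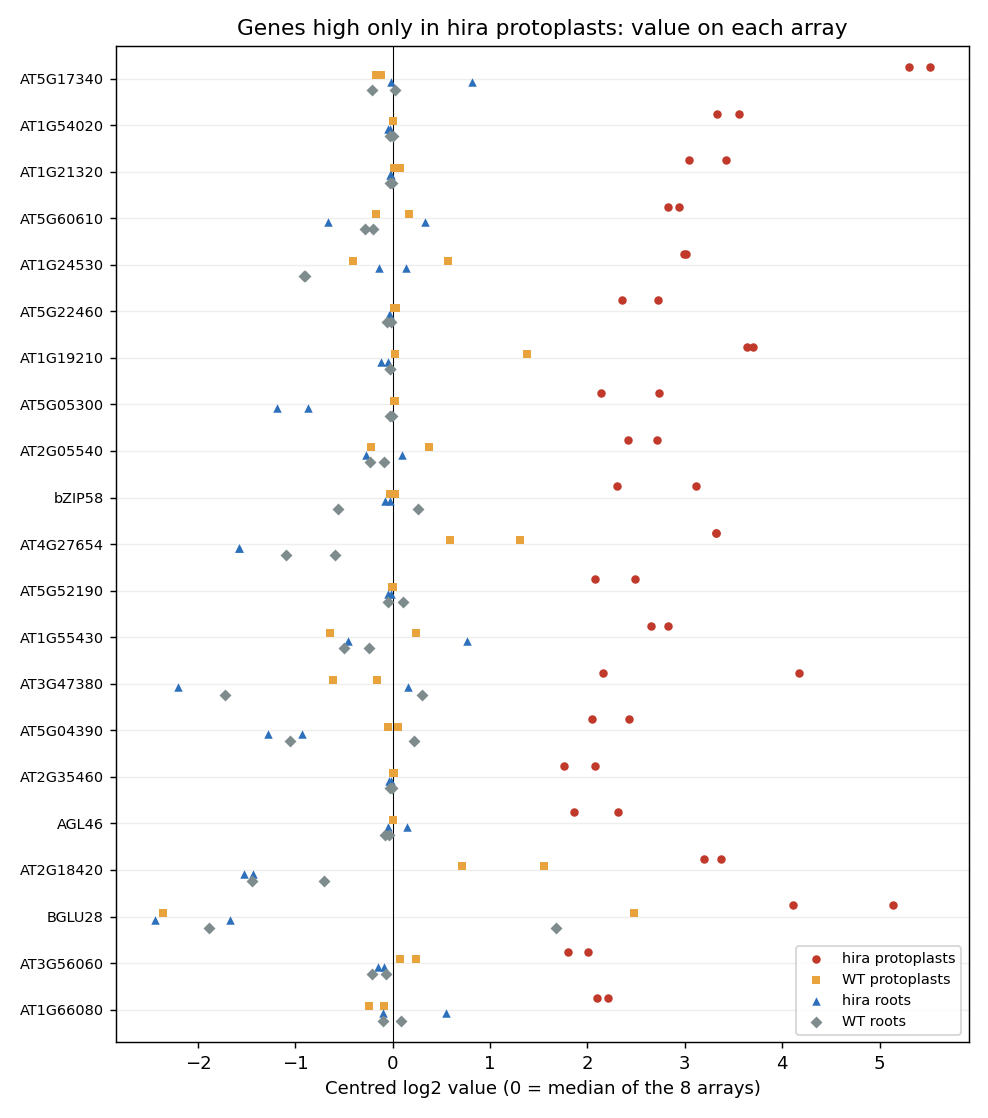
Centred log2 value of each of the 21 genes on each of the 8 arrays, ordered by the gap from the top, with colour and marker giving the group. The 2 hira protoplast arrays sit right of all other arrays in every row, while the other 6 arrays lie close together for genes such as AT1G54020 and far apart for BGLU28.

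Transcriptional regulators made up part of the group. AT1G19210, which encodes an AP2/ERF-type transcription factor of the family that acts in ethylene, drought and wound responses, had 3.70 and 3.64 in hira protoplasts, 0.03 and 1.38 in WT protoplasts, -0.05 and -0.12 in hira roots, and -0.03 and -0.03 in WT roots. WT protoplast replicate 2 stood well above the roots, and replicate 1, at 0.03, lay just above them. The basic leucine zipper factor gene bZIP58 had 3.12 and 2.31 in hira protoplasts, -0.02 and 0.02 in WT protoplasts, -0.08 and -0.03 in hira roots, and 0.26 and -0.56 in WT roots. Its hira protoplast average of 2.71 ± 0.57 stood apart from the other 6 arrays, which spanned 0.83.

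AGL46, a gene of the MADS-box family of DNA-binding factors, had 1.86 and 2.31 in hira protoplasts, while its WT protoplast values of 0.00 and 0.00, hira root values of 0.15 and -0.04 and WT root values of -0.08 and -0.03 lay within 0.23 of each other. AT5G04390, which encodes a zinc finger protein, had 2.05 and 2.42 in hira protoplasts, 0.05 and -0.05 in WT protoplasts, -0.93 and -1.28 in hira roots, and -1.06 and 0.22 in WT roots. The hira roots were thus at the low end for this gene, but overlapped WT roots.

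Enzyme genes formed the second group. AT1G54020 encodes a GDSL-type lipase, an enzyme class that cleaves ester bonds of lipids and other substrates. It had 3.33 and 3.55 in hira protoplasts, and its other 6 arrays lay between -0.05 and 0.01. AT5G22460, of the alpha/beta-hydrolase superfamily, had 2.73 and 2.36 in hira protoplasts against -0.06 to 0.03 on the other arrays. For both genes WT protoplasts and the roots of both genotypes thus shared 1 narrow range.

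BGLU28 encodes a beta-glucosidase, an enzyme that releases sugar from glucosylated compounds, and is known as a marker of sulphur deficiency. It had 4.11 and 5.13 in hira protoplasts, 2.48 and -2.36 in WT protoplasts, -1.67 and -2.44 in hira roots, and 1.67 and -1.89 in WT roots. Its replicates disagreed in both WT groups, with replicate 1 high and replicate 2 low in each, and its hira protoplast average of 4.62 ± 0.72 was set against a WT protoplast average of 0.06 ± 3.42 (SD, n = 2). BGLU28, AT3G47380 and AT5G04390 were the 3 members that limma did not call between hira and WT protoplasts, a contrast that the rule used. The GMC-type oxidoreductase gene AT3G56060 had 1.81 and 2.01 in hira protoplasts against -0.21 to 0.24 elsewhere, and AT5G52190, of the sugar isomerase family, had 2.08 and 2.49 against -0.05 to 0.10.

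Genes for secreted and wall-related proteins were also present. AT3G47380 encodes a protein of the invertase and pectin methylesterase inhibitor family, whose members restrain enzymes that modify wall pectin. It had 2.16 and 4.18 in hira protoplasts, -0.16 and -0.61 in WT protoplasts, -2.21 and 0.16 in hira roots, and -1.72 and 0.30 in WT roots. Replicates were about 2.02 apart in hira protoplasts, the widest difference among the members, and hira and WT roots each held a low replicate 1 and a higher replicate 2.

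AT2G18420, of the gibberellin-regulated GASA family of small cysteine-rich peptides, had 3.37 and 3.19 in hira protoplasts, 1.55 and 0.71 in WT protoplasts, -1.53 and -1.43 in hira roots, and -1.44 and -0.71 in WT roots. Protoplasts of both genotypes thus lay above roots of both genotypes, with hira protoplasts highest. The glycine-rich protein gene AT2G05540 had 2.41 and 2.71 in hira protoplasts, and its other arrays lay between -0.27 and 0.37. AT2G35460, of a late embryogenesis abundant and hydroxyproline-rich glycoprotein family related to defence-associated membrane proteins, had 1.76 and 2.08 in hira protoplasts against -0.03 to 0.02 on the other arrays.

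A further set of genes encodes proteins with interaction domains. The F-box gene AT5G60610, of a family that selects proteins for ubiquitin tagging, had 2.83 and 2.95 in hira protoplasts, 0.17 and -0.17 in WT protoplasts, 0.33 and -0.67 in hira roots, and -0.29 and -0.20 in WT roots. The WD-repeat gene AT1G24530 had 3.01 and 2.99 in hira protoplasts, 0.57 and -0.41 in WT protoplasts, -0.14 and 0.14 in hira roots, and -0.91 and -0.90 in WT roots, which were its lowest arrays. AT1G55430, of a cysteine and histidine-rich domain family, had 2.83 and 2.66 in hira protoplasts, with hira roots at 0.77 and -0.46 overlapping both WT groups.

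The remaining 5 genes are given without a role. AT5G17340 had the widest gap of the group, with 5.52 and 5.30 in hira protoplasts, -0.17 and -0.12 in WT protoplasts, -0.02 and 0.81 in hira roots, and -0.21 and 0.02 in WT roots. AT1G21320 had 3.04 and 3.43 in hira protoplasts against -0.02 to 0.08 elsewhere, and AT1G66080 had 2.09 and 2.21 against -0.24 to 0.55. The highest other array of AT1G66080 was hira root replicate 1.

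AT5G05300 had 2.14 and 2.73 in hira protoplasts, 0.01 and 0.03 in WT protoplasts, -1.19 and -0.87 in hira roots, and -0.03 and -0.01 in WT roots. It therefore had its highest and its lowest values in the hira background, while the 4 WT arrays nearly coincided. AT4G27654 had 3.32 on each hira protoplast array, 0.59 and 1.30 in WT protoplasts, -1.57 on each hira root array, and -0.59 and -1.09 in WT roots. Its groups did not overlap, and their order was hira protoplasts, WT protoplasts, WT roots and hira roots.

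The other 6 arrays separated the members into a flat and a variable set. For 6 genes, AT1G54020, AT1G21320, AT5G22460, AT5G52190, AT2G35460 and AGL46, these arrays spanned at most 0.3, a limit set after the values were seen. Their ranges ran from 0.05 for AT2G35460 to 0.23 for AGL46, and their gaps from 1.71 to 3.32. For the other 15 genes the range was wider, up to 4.92 for BGLU28. The highest of the other arrays was a WT protoplast array for 11 of the 21 genes, a hira root array for 5 and a WT root array for 5. The matching shares over all probe sets were not counted. Over all probe sets the medians of the WT protoplast arrays, 0.03 and 0.04, were also the highest of any array. This count is therefore no result about the members.

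Differences of group means without hira protoplasts were used to ask whether the members already responded in WT or differed between roots. The rule also caps each array compared. Only the differences leave out hira protoplasts, as the SE, p-values and calls came from the fit over all arrays. They therefore also used the spread of the hira protoplast arrays, which chose the members. Of the 21 genes, 2 rose in WT protoplasts against WT roots and 0 fell, where 11.7% of all 22746 probe sets were called higher and 13.9% lower (limma, Benjamini-Hochberg adjusted p under 0.05). AT2G18420 averaged 1.13 ± 0.59 in WT protoplasts and -1.07 ± 0.52 in WT roots (SD, n = 2 each), a rise of 2.20 (SE 0.37, limma adjusted p = 0.0158). AT4G27654 averaged 0.95 ± 0.50 in WT protoplasts and -0.84 ± 0.35 in WT roots, a rise of 1.79 (SE 0.28, limma adjusted p = 0.0137).

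With the 4 WT arrays alone neither gene was called, at limma adjusted p = 0.104 for AT2G18420 and 0.0986 for AT4G27654. The share of all probe sets called higher fell to 4.14% in that fit. Without WT root replicate 1 the call of AT2G18420 was lost (limma adjusted p = 0.0512), and without WT root replicate 2 that of AT4G27654 (0.0515). The name "high only in hira protoplasts" therefore holds as highest in hira protoplasts for these genes, which were also higher in WT protoplasts than in WT roots in the fit over all arrays. Both WT protoplast arrays lay above both WT root arrays for 11 of the 21 genes and below them for 0, against 50.1% and 26.8% of all probe sets. The share of members with WT protoplasts above was thus near that of all probe sets, while the share below was under it. The reason for the latter was not tested. The median change of the members was 0.17, against 0.03 over all probe sets, and 4 of the 21 had an unadjusted p under 0.05.

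Next in size among members that were not called, AT1G24530 differed between WT protoplasts and WT roots by 0.98 (SE 0.33, limma adjusted p = 0.0954) and AT1G19210 by 0.73 (SE 0.44, limma adjusted p = 0.275). AT3G56060 differed by 0.30 (SE 0.10, limma adjusted p = 0.0993). For BGLU28 the difference of 0.17 had an SE of 1.996, so a change of several log2 units in either direction was not detectable with these arrays.

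In hira roots against WT roots limma called 0 of the 21 genes higher and 0 lower, where 4.91% and 4.28% of all probe sets were called. An unadjusted p under 0.05 was reached by 2 members, AT5G05300 at -1.01 (SE 0.22, limma adjusted p = 0.0599) and AT1G24530 at 0.90 (SE 0.33, limma adjusted p = 0.176). Both hira root arrays lay below both WT root arrays for 3 members, AT5G05300, AT4G27654 and AT1G19210, against 23.9% of all probe sets, and above them for 1, AT1G24530, against 23.5%. The median difference of the members was -0.01, against 0.00 over all probe sets. When probe sets with an SD under 0.2 over the arrays were dropped, AT5G05300 was called lower, and when WT protoplast replicate 1 or replicate 2 was left out AT1G24530 was called higher.

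**Figure D3:**
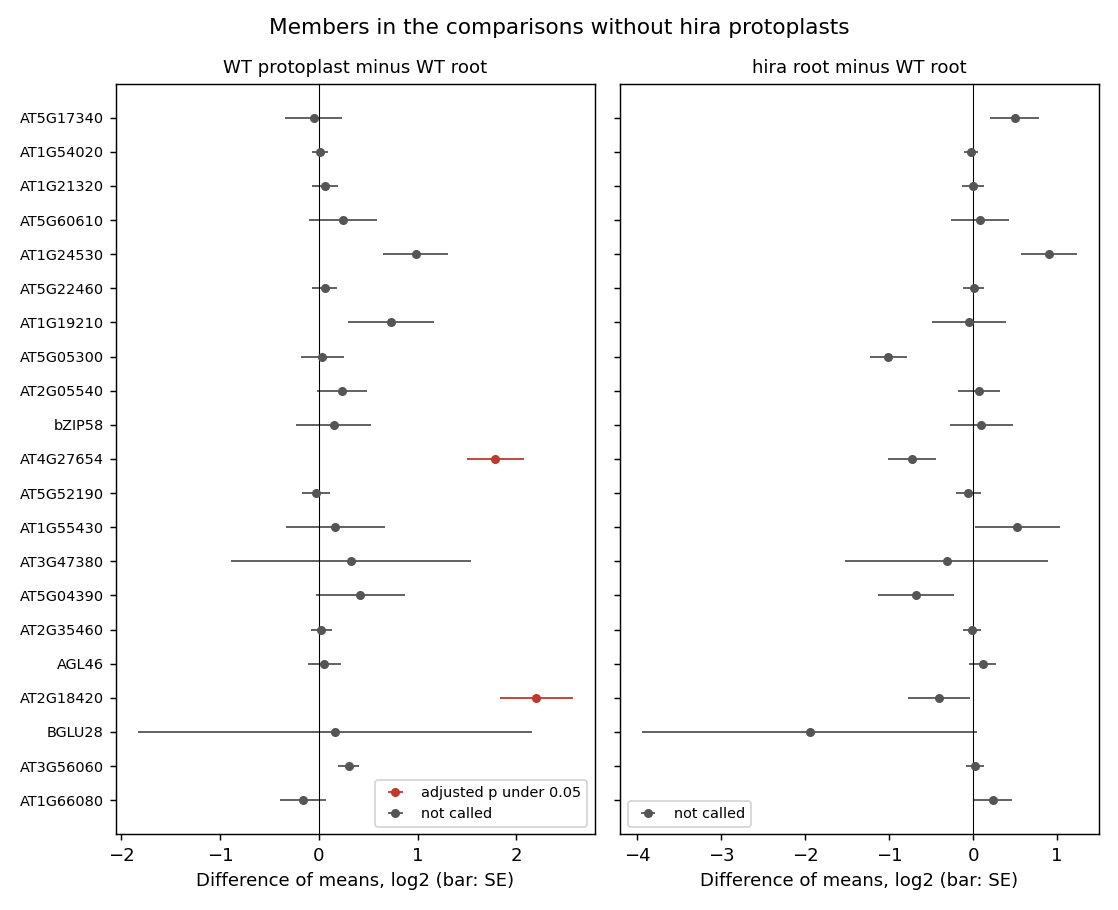
Difference of group means (log2) for each of the 21 genes, with the standard error of the limma fit as a bar, for WT protoplasts minus WT roots on the left and hira roots minus WT roots on the right. On the left AT4G27654 and AT2G18420 were called (red), and on the right no member was.

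Genes next to a member on the chromosome were examined as a measure that the rule did not use. Of the 2 annotated genes on each side of each member, 45 probe sets were measured, around 18 of the 21 members, and none was itself a member. Both hira protoplast arrays lay above all other arrays in 7 of the 45, or 15.6%, against 5.28% of all single-gene probe sets. Most of the 7 lay around 2 members: AT2G28680, AT2G28690 and AT2G28710 around AGL46, and AT4G27652 and AT4G27657 around AT4G27654. The others were AT2G18410 and AT1G66070. The share thus rests mainly on 2 places in the genome. Limma called 5 of the 45 higher in hira than in WT protoplasts, or 11.1%, against 5.05% of all probe sets, and 0 lower, against 3.24%. The median difference of the neighbours was 0.02, against -0.05 over all probe sets.

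The 5 called neighbours lay beside 4 members. AT4G27657, next to AT4G27654, was higher by 1.76 (SE 0.28, limma adjusted p = 0.038). AT2G18400 was higher by 1.25 (SE 0.13, limma adjusted p = 0.0195) and AT2G18410 by 0.66 (SE 0.11, limma adjusted p = 0.0433), both beside AT2G18420. AT3G47370, next to AT3G47380, was higher by 1.44 (SE 0.20, limma adjusted p = 0.0323) and AT5G22440, near AT5G22460, by 1.43 (SE 0.23, limma adjusted p = 0.039). Of these 5, AT4G27657 and AT2G18410 had both hira protoplast arrays above all others, as the members do. The other 3 had hira roots as their highest group: AT2G18400 was lower in hira protoplasts than in hira roots, at -1.63 (limma adjusted p = 0.003), as were AT3G47370 at -1.19 (limma adjusted p = 0.0176) and AT5G22440 at -1.92 (limma adjusted p = 0.00744). These 3 were also lower in WT protoplasts than in WT roots, by more than 2 log2 units each. The count of called neighbours depended on the fit. It was 1 with the replicate number as a block and 0 with the 4 protoplast arrays alone. The estimates kept their direction with any 1 array left out, and that of AT5G22440 ran from 1.24 to 1.62. Hira roots are not in this contrast, so leaving out either hira root array left that estimate at 1.43. The share of all probe sets called in these fits is not given here. Whether the fall in calls is particular to the neighbours therefore cannot be told.

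Around AGL46, 3 of the 4 measured neighbours had both hira protoplast arrays above all others. AT2G28680 had 2.96 and 2.47 in hira protoplasts, 0.76 and 2.001 in WT protoplasts, -1.01 and -1.02 in hira roots, and -0.76 and -0.999 in WT roots. AT2G28690 had 1.71 and 1.98 in hira protoplasts, 0.22 and -0.22 in WT protoplasts, -0.47 and -0.56 in hira roots, and -0.56 and 1.07 in WT roots. AT2G28710 had 1.30 and 2.15 in hira protoplasts, 0.10 and -0.68 in WT protoplasts, -0.10 and 0.86 in hira roots, and -0.52 and -1.11 in WT roots.

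These 3 neighbours differed between hira and WT protoplasts by 1.33 (SE 0.44), 1.85 (SE 0.56) and 2.02 (SE 0.52), with limma adjusted p = 0.127, 0.107 and 0.0841, so none passed. The fourth, AT2G28720, had its lowest values in hira protoplasts, at -1.09 and -0.95. Unlike AGL46, whose other arrays were flat, AT2G28680 rose in WT protoplasts against WT roots too, by 2.26 (SE 0.44, limma adjusted p = 0.0237).

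Beside AT4G27654, the neighbours AT4G27652 and AT4G27657 shared its order of groups. AT4G27657 had 2.16 and 2.53 in hira protoplasts, 0.79 and 0.37 in WT protoplasts, -1.39 and -1.36 in hira roots, and -1.01 and -0.37 in WT roots. AT4G27652 had 2.03 and 2.14 in hira protoplasts, 1.99 and 0.82 in WT protoplasts, -3.70 and -3.36 in hira roots, and -1.34 and -0.82 in WT roots. Both rose in WT protoplasts against WT roots, AT4G27652 by 2.49 (SE 0.43, limma adjusted p = 0.0175) and AT4G27657 by 1.27 (SE 0.28, limma adjusted p = 0.0323). AT4G27652 was lower in hira than in WT roots, at -2.45 (SE 0.43, limma adjusted p = 0.0391), and its difference between hira and WT protoplasts, 0.68 (SE 0.43), had a limma adjusted p = 0.334.

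**Figure D4:**
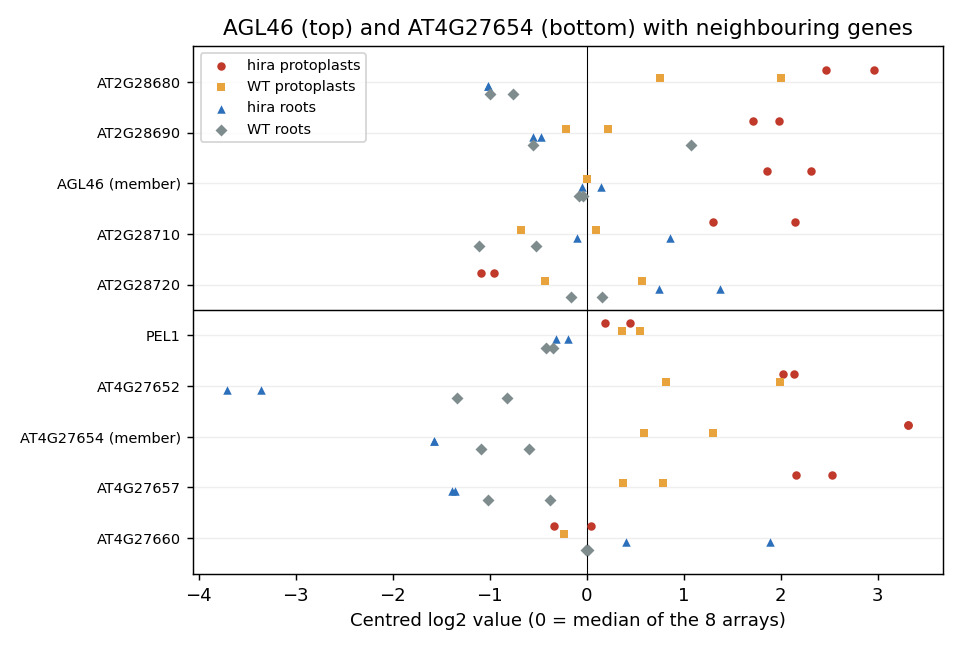
Centred log2 values of AGL46 with the 2 measured genes on each side (top) and of AT4G27654 with the 2 on each side (bottom), in gene order, on each of the 8 arrays. The hira protoplast arrays are the highest in 4 of the 5 rows of the AGL46 block and in AT4G27652, AT4G27654 and AT4G27657, though by only 0.04 for AT4G27652.

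Other bZIP genes were counted between hira and WT protoplasts, where 5.05% of all probe sets were higher and 3.24% lower. So were other glycoside hydrolase genes. That list is wider than the beta-glucosidase family of BGLU28, and also holds cellulases and AMY1, among others. Of 15 other bZIP genes 0 were higher and 1 was lower in hira than in WT protoplasts, BZIP60, which encodes a factor of the endoplasmic reticulum stress response, at -0.93 (SE 0.18, limma adjusted p = 0.0496). The median of the 15 was -0.08, against -0.05 over all probe sets.

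Of 39 other glycoside hydrolase probe sets, 2 were higher in hira protoplasts, AMY1, which the rule set aside, and the cellulase gene GH9C2 at 2.23 (SE 0.38, limma adjusted p = 0.0433). A further 2 were lower, GH9B11 at -0.27 (SE 0.04) and BGLU36 at -0.18 (SE 0.03). BGLU28's chromosome neighbours BGLU15 and BGLU29 had differences of 0.07 and -0.11 between hira and WT protoplasts. With a mean trend and robust settings in the variance model, 6 bZIP entries were lower, and with any 1 array left out 0 were.

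Of a list of HIRA complex and histone chaperone genes, 3 were measured, ASF1B, SGA2 and ATRX, so no HIRA, UBN or CABIN gene was. Between hira and WT protoplasts 0 were called, against 5.05% higher and 3.24% lower over all probe sets. ASF1B differed by 1.32 (SE 0.30, limma adjusted p = 0.0649) and SGA2 by -0.62 (SE 0.12, limma adjusted p = 0.0513), both near the limit. ATRX differed by 0.24 (SE 0.14, limma adjusted p = 0.312). ATRX, a chromatin remodeller that acts with H3.3, had 0.01 and 0.14 in hira protoplasts, -0.32 and -0.01 in WT protoplasts, -0.92 and -1.11 in hira roots, and 0.76 and 0.96 in WT roots. It was lower in hira than in WT roots, at -1.88 (SE 0.14, limma adjusted p = 0.00863). Of the 3 measured genes of callus formation and pluripotency, LBD16, BBM and LBD29, 0 were called between hira and WT protoplasts either. Against WT roots, WT protoplasts differed by 2.28 for LBD16 (SE 0.50, limma adjusted p = 0.0335) and -2.34 for BBM (SE 0.38, limma adjusted p = 0.0145). LBD29 was not called there. Both hira protoplast arrays of LBD16, at 2.20 and 2.33, lay above all others. Only LBD16 was called between hira protoplasts and hira roots, at 4.56 (SE 0.50, limma adjusted p = 0.00616).

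Marker genes of other tissues were thinly covered. The 3 measured pollen markers, including the germline histone gene MGH3, had hira protoplast values between -0.03 and 0.01, and none of the 8 lists of tissue markers held a member. The single green-tissue marker, RCA, had -1.80 and -1.91 in hira protoplasts against 0.00 and 0.40 in WT protoplasts (limma adjusted p = 0.298). Its hira root replicates disagreed, at -3.01 and 0.62, and WT roots had 0.15 and 0.00. The 2 measured endodermis and cortex markers, AT1G09750 and AT1G62500, had their highest values in hira roots. Neither was called between hira and WT protoplasts. The root hair expansin gene EXPA7 had -0.97 and -1.54 in hira protoplasts, 0.07 and 1.75 in WT protoplasts, 1.67 and 1.53 in hira roots, and -0.07 and -1.84 in WT roots. Both hira protoplast arrays lay below both WT protoplast arrays (limma adjusted p = 0.159). The part of these markers in the gene values was not tested. Markers of seeds, of the stele, and of the cap or niche of the root had no single-gene probe set, so the labelled root origin was not checked for these cell types. In bulk samples, more cells of a type and more RNA per cell cannot be told apart.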

How the data were processed

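Transcripts were measured on 8 single-colour Affymetrix arrays, 2 in each of 4 groups taken from the sample titles. The deposited log2 values were made by the authors with GCRMA, per the submitters' processing notes, with no version. No source used here states the log base, taken as log2. The median of every probe set is 0. Genes came from the platform annotation (13513 probe sets with 1 gene), updated through RefSeq (assembly TAIR10.1) by gene ID for 20 members and by locus code for 1. Gene families of locus codes are background knowledge. The members, lists and tests were chosen with earlier results of these data known. With limma 3.58.1 (R 4.3.3), 4 group means were estimated from the 8 arrays over 22746 probe sets, two-sided, with Benjamini-Hochberg adjustment and no filter. The fit was tested on simulated data. Named genes are all members, the 5 nearest either side of the limit, called neighbours, and up to 2 called genes per list and direction; several gene lists are not reported here. The AGL46 and AT4G27654 surroundings were picked after their values were seen. Precision is limited by 2 arrays a group.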

Additional observations from a re-analysis of the deposited data

How the results depend on the processing

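The number of members was 53 with a gap of 1 and 11 with a gap of 2, 50 after quantile normalization, which gives the hira protoplast arrays, those with the smallest SD, the same distribution as the rest, and 63 with group means in place of single arrays. Leaving out 1 array gave 21 to 59, and all 21 members stayed in each time, as leaving out an array can only widen a gap. For WT protoplasts against WT roots, 0 members were called higher with the 4 arrays compared alone and 1 to 3 with 1 array left out. For hira roots against WT roots, 1 was called lower with the SD filter of 0.2, and 0 to 1 were called higher with 1 array left out. Of 28 values of the 2 called members under alternatives 24 kept their call, and of 124 values of the 9 named neighbours and family genes, alternatives added after seeing the data, 43 did; none changed direction. With the replicate number as a block (replicate block), 2 members were called higher and 0 lower in WT protoplasts. In hira roots 0 were higher and 0 lower. Called neighbours fell to 1 against 5 without the block, lower bZIP genes to 0 against 1 and lower glycoside hydrolases to 0 against 2. Differences between same-numbered replicates correlated between groups at -0.096 to 0.048 over all probe sets. Whether the numbers pair the arrays cannot be told from these correlations. The cause of these changes was not tested.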
